A study of Homo sapiens with 4 samples.

Results

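Tandem and clustered genes for 5S ribosomal RNA, transfer RNA (tRNA) and histones were examined for peaks of the transcriptional coactivator YAP and of its DNA-binding partner TEAD1 in H69 cells. Members were the deposited peaks whose centre lay in 1 of 4 intervals of the human genome build hg19. These were the 5S array (chr1:228600000-228800000), a tRNA gene cluster (chr1:161350000-161600000), a cluster of histone and tRNA genes (chr6:26000000-29000000) and a histone gene cluster (chr1:149700000-149900000). The intervals held 253 of the 61551 peaks in the 3 lists, of which 55 of 2471 came from the Santa Cruz antibody against YAP, 91 of 10118 from the Avruch antibody against YAP and 107 of 48962 from TEAD1. The intervals were chosen by their genes and not by a peak value, but with earlier results of these data known.

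The series used chromatin immunoprecipitation with sequencing on H69, given in the labels as a human cell line with no treatment or genotype named. Of its 4 libraries, 1 per antibody, the 3 with a peak list were used, and the library made with an unrelated IgG was not analysed here. Santa Cruz is the only antibody source that a label names; the names Avruch, for the remaining library against YAP, and TEAD1, for the library labelled TEAD, come from the design text. There were no replicates, so no test between antibodies or intervals was possible, and each interval given for a share covers counting error only. Such a Wilson interval takes each peak as independent. Neighbouring peaks of 1 array are not independent, so it can be too narrow there. The authors' score of a peak has no stated unit, starts at about 50 in each list and is compared only within a list. Read depth is unknown, so the lists' lengths do not rank the proteins.

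YAP does not bind DNA by itself and reaches chromatin mainly through TEAD factors, which read the letters GGAATG. The 5S and tRNA genes are short, are transcribed by RNA polymerase III from promoter elements within the gene, and exist in many nearly identical copies. Replication-dependent histone genes are transcribed by RNA polymerase II in S phase and lie in clusters, often as divergent pairs. Reads from near-identical copies cannot be placed uniquely, and how the authors handled such reads is not stated in the labels or lists, so peak positions within the arrays are uncertain. RefSeq, in build GRCh38.p14, lists 17 genes on chromosome 1 named as 5S genes (RNA5S1 and those numbered after it), and 15 of their neighbouring pairs have no other gene between them. It also lists 27 tRNA genes between TRV-CAC1-1 and FCGR2A, within which the order TRE-CTC, TRG-TCC, TRD-GTC, TRL-CAG recurs 4 times. On chromosome 6 it lists 155 of 443 nuclear tRNA genes. The histone genes of the classes H1, H2A, H2B, H3 and H4 searched here number 55 on chromosome 6 and 13 on chromosome 1. Peaks are in hg19, so none was assigned to a gene here, and the gene content of each interval is taken from the rule that defines it.

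Histone gene promoters are the only sequences of these gene classes used here, and they are shown for the letters that TEAD factors read. RefSeq promoters of build GRCh38.p14 were matched for 63 of the 68 histone genes, with 67 entries, and the 250 bases before the gene start were searched on both strands. The letters GGAATG stood in 4 of 67 (5.97%), against 11.9% of all 35116 promoters. The AP-1 letters TGACTCA stood in 0 of 67, against 4.2% of all promoters. TATAAA stood in 44 (65.7%, against 10.7%) and CCAAT in 58 (86.6%, against 32.0%). Each motif was searched together with its reverse complement, and neighbouring matches can share end letters. A match describes the sequence and is not a bound site. The 4 promoters with the TEAD letters are those of H2BC3 (chr6:26043714-26043963), encoding an H2B, H1-3 (chr6:26234988-26235237), encoding a linker histone, and H4C8 (chr6:26285535-26285784) and H4C13 (chr6:27873535-27873784), both encoding histone H4. All are on the minus strand in GRCh38.p14, and these positions cannot be set beside the hg19 positions of the peaks. They are printed 5′ to 3′ along the gene, with GGAATG or its reverse complement CATTCC in capitals.
H2BC3: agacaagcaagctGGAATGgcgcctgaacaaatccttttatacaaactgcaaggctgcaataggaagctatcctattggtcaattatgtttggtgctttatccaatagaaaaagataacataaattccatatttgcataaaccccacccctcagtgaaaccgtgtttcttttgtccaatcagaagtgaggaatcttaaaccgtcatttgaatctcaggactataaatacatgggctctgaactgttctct
H1-3: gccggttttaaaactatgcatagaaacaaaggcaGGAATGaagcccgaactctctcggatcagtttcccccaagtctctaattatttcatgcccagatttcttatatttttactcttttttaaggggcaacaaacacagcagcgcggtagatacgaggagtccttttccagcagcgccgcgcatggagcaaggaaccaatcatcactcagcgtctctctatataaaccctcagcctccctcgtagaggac
H4C8: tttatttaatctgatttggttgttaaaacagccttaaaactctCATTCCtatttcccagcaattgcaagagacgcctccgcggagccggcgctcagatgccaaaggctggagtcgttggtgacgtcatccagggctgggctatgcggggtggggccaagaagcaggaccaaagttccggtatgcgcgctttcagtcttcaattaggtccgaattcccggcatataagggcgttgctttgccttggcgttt
H4C13: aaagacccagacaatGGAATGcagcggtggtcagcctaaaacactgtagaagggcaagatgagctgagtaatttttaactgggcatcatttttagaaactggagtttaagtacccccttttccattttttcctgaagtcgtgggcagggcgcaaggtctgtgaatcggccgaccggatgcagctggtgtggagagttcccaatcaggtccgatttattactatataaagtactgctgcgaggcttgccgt
In these promoters the letters began 237, 216, 207 and 235 bases before the gene start, respectively, and in H4C8 they stood on the opposite strand.

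All 3 lists overlapped in the 5S array and the chromosome 1 tRNA cluster, and no peak of the other 2 intervals was shared by all 3. Over the whole lists, 18.9% of Santa Cruz, 5.2% of Avruch and 0.66% of TEAD1 peaks met both other lists. None among the few peaks of those 2 intervals is therefore close to the lists' own shares. In the 5S array, each of the 36 Santa Cruz peaks met a peak of the Avruch list (Wilson 95% interval from 90.4%), and in the chromosome 1 tRNA cluster 13 of 14 did (92.9%, 68.5 to 98.7). Over the whole Santa Cruz list the share was 28.2%. Avruch peaks covered 86.7% of the 5S stretch and 60.9% of the tRNA stretch between the outer edges of the wide TEAD1 peaks. An overlap of 1 bp was thus nearly fixed by coverage in the 5S array and likely in the tRNA cluster. Santa Cruz peaks covered 57.9% and 50.7% of these stretches, so coverage also raised the shares seen from the Avruch side. From the Avruch side, 34 of 47 peaks of the 5S array (72.3%, 58.2 to 83.1) and 18 of 30 of the tRNA cluster (60%, 42.3 to 75.4) overlapped a Santa Cruz peak, against 8.16% of the list. In the chromosome 6 cluster none of 3 Santa Cruz and none of 14 Avruch peaks met a peak of the other YAP antibody, which for the Avruch peaks allows a share of up to 21.5%. The chromosome 1 histone cluster held 2 Santa Cruz peaks and no Avruch peak.

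TEAD1 overlapped 36 of 36 Santa Cruz peaks and 46 of 47 Avruch peaks of the 5S array, and 13 of 14 and 30 of 30 in the tRNA cluster. The shares over the whole lists were 30.9% for Santa Cruz and 19.4% for Avruch. Overlap with TEAD1 in these arrays was nearly fixed by coverage. Between the outer edges of the wide TEAD1 peaks, TEAD1 covered 100% of the 5S stretch and 95% of the tRNA stretch. In the tRNA stretch, 93.5% of Santa Cruz and 93.6% of Avruch base pairs lay under TEAD1, no more than that coverage. In the chromosome 6 cluster, 2 of 3 Santa Cruz peaks and 6 of 14 Avruch peaks (42.9%, 21.4 to 67.4) overlapped TEAD1. A peak of either other list lay on 51 of the 55 Santa Cruz members and 82 of the 91 Avruch members, against 40.2% and 22.4% of the lists. Most of these members lay in the same 2 stretches, so the pooled numbers carry the same limit. Peaks of both other lists lay on 49 Santa Cruz members, against 18.9%, and on 52 Avruch members, against 5.2%, and all of these were in the 5S array and the tRNA cluster. Seen from TEAD1, 11 of 107 members overlapped Santa Cruz, against 1.14% of the list, and 17 overlapped Avruch, against 3.11%. TEAD1 peaks that met both YAP lists numbered 9 among the 107 members, against 0.66% of the list. Of these, 2 lay in the 5S array and 7 in the tRNA cluster, and none of the 70 peaks of chromosome 6 or the 15 of the chromosome 1 histone cluster did so. A YAP peak of either antibody lay on 8 of 70 TEAD1 peaks of chromosome 6 (11.4%, 5.91 to 21.0) and on none of 15 in the chromosome 1 histone cluster (up to 20.4%), against 3.59% of the list.

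**Figure D1:**
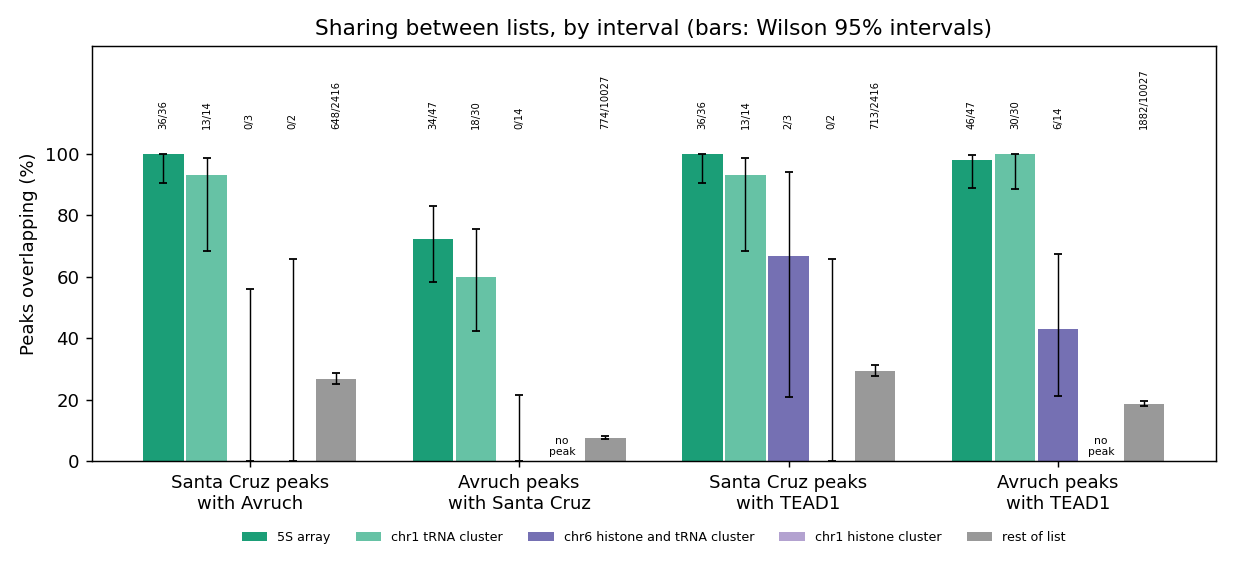
Share of peaks of the first-named list that overlapped a peak of the second by at least 1 bp, in percent, for each interval and for the rest of the list outside the 4 intervals. Error bars are Wilson 95% intervals, which take peaks as independent though neighbours in an array are not, and the fractions above give the counts. The 5S array and the tRNA cluster reach 60 to 100%, while the rest of the lists lies between 7.72 and 29.5%. In these arrays, wide TEAD1 peaks make overlap with TEAD1 nearly unavoidable. Dense Avruch peaks make overlap of Santa Cruz with Avruch nearly unavoidable in the 5S array and likely in the tRNA cluster.

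TEAD1 peaks covered 19.8% of the 5S array interval, nearly all of it within a span set by its wide peaks. The TEAD1 peaks at least 1 kb wide ran from 228744016 to 228762749 (18734 bp) and from 228762752 to 228782526 (19775 bp), with 2 bp between them. Both had a score of 3100, a value that 22 TEAD1 peaks share from rank 4 of the list on. Together the wide peaks spanned 38.5 kb, and no YAP peak covered the gap. Near-complete TEAD1 coverage of this span follows from how it was set. The other 5 TEAD1 peaks of the interval were 98 to 366 bp wide with scores from 55.02 to 99.25, and no YAP peak overlapped them. Only 3.59% of the whole TEAD1 list met a YAP peak, so none among 5 is close to the list's share. Peaks at least 1 kb wide were 2 of the 7 TEAD1, 12 of the 47 Avruch and 5 of the 36 Santa Cruz peaks of the interval, against 1.08%, 2.33% and 8.13% of the lists.

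Avruch peaks nearly filled the same 38.5 kb, and Santa Cruz peaks filled more than 50% of it. The 46 Avruch peaks there ran from 228744095 to 228782534 and covered 86.7% of the span, with a median gap of 54 bp and a longest gap of 869 bp. With gaps of at most 1 kb joined they became 1 stretch of 38.4 kb, at rank 5 by width of 8621 joined Avruch stretches on placed chromosomes. The 36 Santa Cruz peaks ran from 228744761 to 228782389 and covered 57.9%, with a longest gap of 2351 bp. Their longest joined stretch was 10.7 kb wide, at rank 12 of 2024. Both YAP lists thus began and ended within 1 kb of the TEAD1 edges. The one Avruch peak of the interval outside the span was 70 bp wide (228639305 to 228639374, score 89.90) and met no other list.

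The strongest Avruch peaks of the 5S array were 228764370 to 228767054 (2685 bp, score 750.29), 228744536 to 228746234 (1699 bp, 551.50) and 228748896 to 228750108 (1213 bp, 484.82). Of the 47 Avruch peaks, 24 stood among the highest-scoring 5% of their list. The strongest Santa Cruz peaks were 228746775 to 228748768 (1994 bp, 418.46) and 228744761 to 228746032 (1272 bp, 381.30), both near the left edge. Of the 36 Santa Cruz peaks, 6 stood among the highest-scoring 5%. Santa Cruz peaks covered 65.6% of the left TEAD1 peak and 50.5% of the right one, and Avruch peaks covered 88.7% and 84.9%. The highest Avruch peak thus lay under the right TEAD1 peak and the highest Santa Cruz peak under the left one.

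Overlap within so full a span is nearly unavoidable. Avruch peaks lay over 90.6% of the Santa Cruz base pairs and over 86.7% of the whole span. Conversely, 60.4% of the Avruch base pairs lay under Santa Cruz peaks, which covered 57.9% of the span. Within this span, the YAP lists therefore matched each other at single base pairs little more than their coverage gives. With windows of 200 bp around peak centres, the share of Santa Cruz peaks meeting an Avruch peak was 58.3%. For TEAD1 it was 5.56%, since the centres of the wide TEAD1 peaks stand at only a pair of positions. Shares of the whole lists with such windows were not computed.

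**Figure D2:**
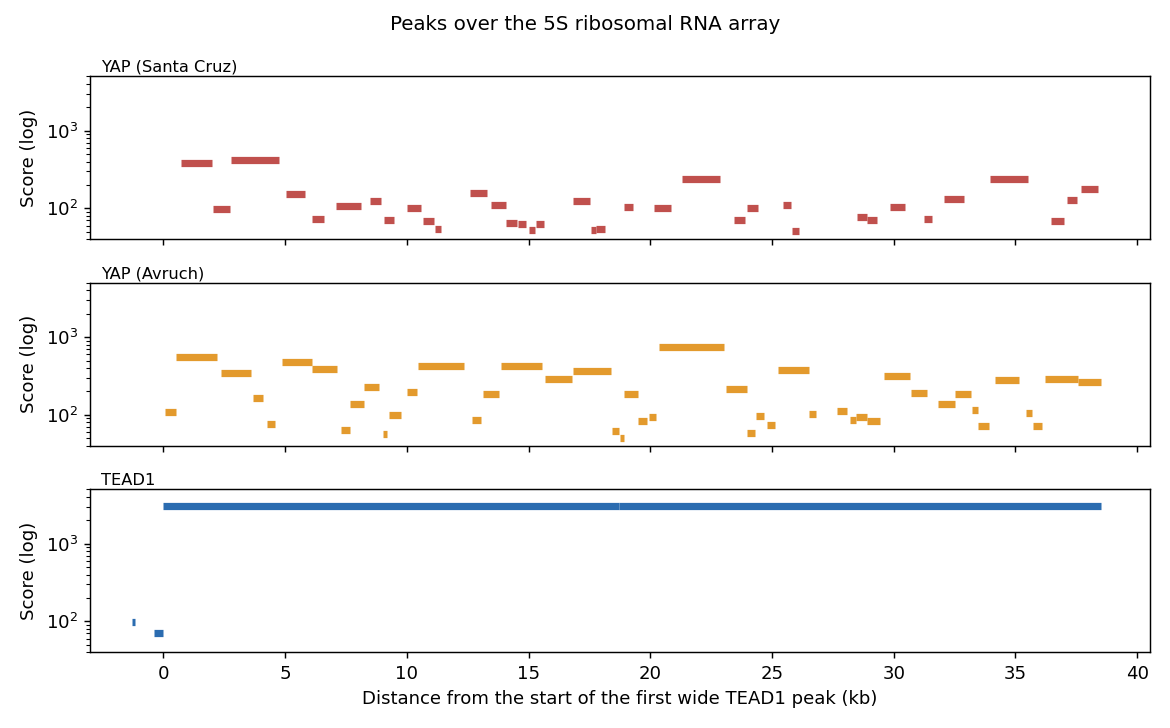
Peaks over the 5S array, each drawn as a horizontal line from its start to its end (x axis, kb from the start of the first wide TEAD1 peak) at the height of its score (y axis, log scale, authors' units, not comparable between panels). TEAD1 peaks lie at 3100 across 38.5 kb, above a series of 46 Avruch and 36 Santa Cruz peaks that begin and end within 1 kb of the TEAD1 edges.

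In the chromosome 1 tRNA cluster, TEAD1 peaks formed a similar but broken block. From 161410307 to 161442511, 9 TEAD1 peaks covered 95% of 32.2 kb, and 8 of them were at least 1 kb wide. Their joined width stood at rank 10 of 43764 joined TEAD1 stretches on placed chromosomes. The widest and strongest TEAD1 peak was 161415573 to 161422982 (7410 bp, score 3003.70, rank 27 of the list). It was followed by 161432342 to 161437626 (5285 bp, 2696.46), 161424948 to 161429804 (4857 bp, 2460.57) and 161410307 to 161415529 (5223 bp, 2206.93). The other 5 of the block had scores from 360.52 to 978.91, and each of the 9 stood among the highest-scoring 5% of the TEAD1 list. All 9 overlapped an Avruch peak and 7 overlapped a Santa Cruz peak.

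Outside the block, 6 TEAD1 peaks were 200 to 964 bp wide, with scores from 51.61 to 190.24, and none met a YAP peak. Only 3.59% of the whole TEAD1 list met one, so none among 6 is close to the list's share. The strongest of the 6 TEAD1 peaks (161392679 to 161393642, score 190.24) lay before the block, and the first Avruch peak began only at 161411308. YAP peaks in the interval kept to the block except for 1 Santa Cruz peak (161517705 to 161517867, score 51.65), which met no other list.

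YAP peaks left more of the tRNA block open than of the span set by the wide TEAD1 peaks in the 5S array. The 30 Avruch peaks covered 60.9% of it, with a longest gap of 1310 bp, and 13 Santa Cruz peaks covered 50.7%, with a longest gap of 3192 bp. The strongest peak of both lists lay at the same place, 161434345 to 161438018 for Santa Cruz (3674 bp, score 322.53) and 161436052 to 161438727 for Avruch (2676 bp, score 286.80). The second strongest Santa Cruz peak, 161420948 to 161423285 (2338 bp, 215.31), overlapped Avruch peaks as well, of which the highest was 161422051 to 161423731 (1681 bp, 189.47). Of the base pairs under Santa Cruz peaks, 71.2% also lay under Avruch peaks, against the 60.9% of the block that Avruch covered. Of the 8 gaps between TEAD1 peaks, 3, of 28 to 55 bp, held no YAP peak of either list. The longest gap, of 767 bp (161437627 to 161438393), lay wholly under an Avruch peak and for 392 bp under a Santa Cruz peak.

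**Figure D3:**
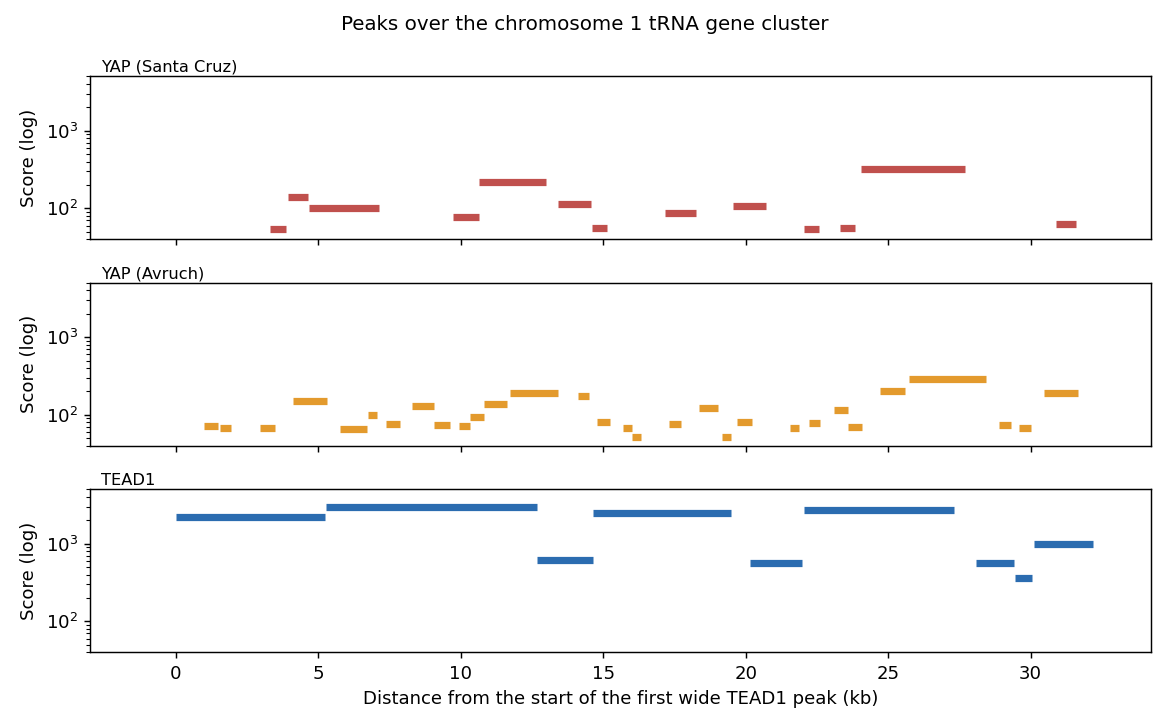
Peaks over the chromosome 1 tRNA cluster, drawn as lines from start to end (x axis, kb from the start of the first wide TEAD1 peak) at the height of their score (y axis, log scale, authors' units, not comparable between panels). The 9 TEAD1 peaks fill 95% of 32.2 kb, and the strongest peak of both YAP lists stands near the right end of the block.

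The coverage of each list was shifted along itself by 1 to 10 kb in steps of 10 bp, and the shift with the highest correlation was taken. It was 7.42 kb for Santa Cruz (r = 0.26), 7.40 kb for Avruch (r = 0.33) and 7.83 kb for TEAD1 (r = 0.57) in the tRNA block of 32205 bp. Each correlation used only the positions left after the shift. These are not independent, since neighbouring base pairs lie in the same peaks. The TEAD1 value rests on 8 gaps between 9 peaks, of which only 2 were longer than 100 bp. These began at 161429805 and 161437627, so the TEAD1 value mainly reflects this 1 distance and is no separate sign of a repeat. The Avruch curve had a further, lower maximum at a shift between 1 and 2 kb that the other lists lacked. In the 5S array the highest correlations were 0.23 at 6.56 kb for Santa Cruz and 0.14 at 2.53 kb for Avruch, at shifts that differed between the antibodies. The TEAD1 list had no gap there from which a distance could be read.

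**Figure D4:**
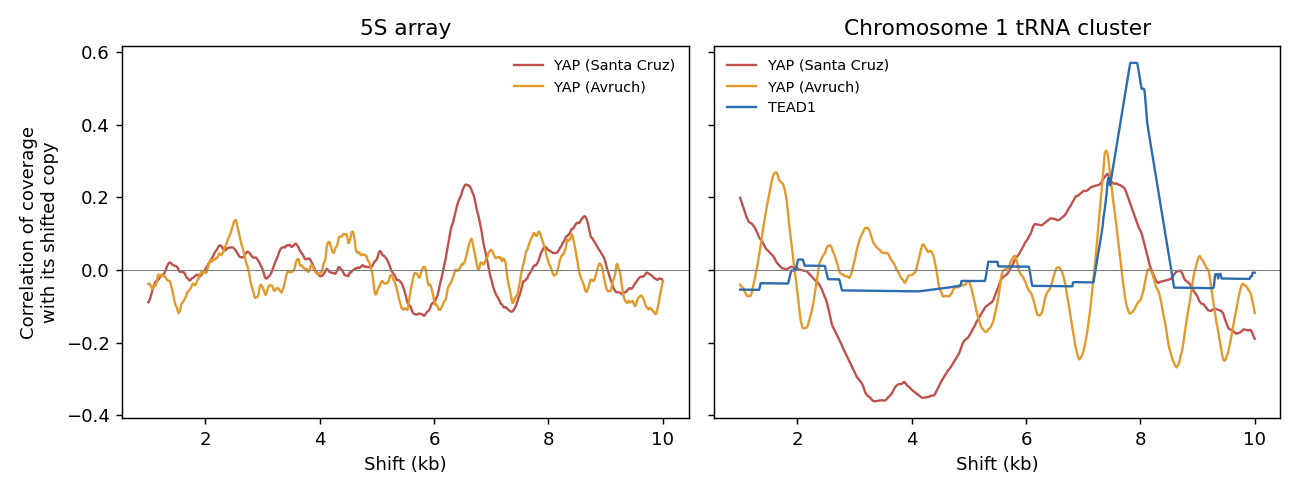
Correlation of the covered base pairs of a list with the same coverage shifted along the block (y axis) against the shift in kb (x axis), for the 5S array and the chromosome 1 tRNA cluster. In the tRNA cluster the YAP curves are highest at 7.42 kb (Santa Cruz, 0.26) and 7.40 kb (Avruch, 0.33). The TEAD1 curve is highest at 7.83 kb (0.57), which mainly reflects the distance between its 2 longest gaps. In the 5S array the curves are highest at 6.56 kb (Santa Cruz, 0.23) and 2.53 kb (Avruch, 0.14). TEAD1 is not drawn for the 5S array, as its coverage there has 1 gap of 2 bp.

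The chromosome 6 cluster of histone and tRNA genes held narrow peaks of ordinary height. Its 70 TEAD1 peaks were 136 to 805 bp wide, with a median of 273.5 bp against 274 bp in the list, and their median score was 65.72 against 67.11. None was among the highest-scoring 5% and 32 were among the upper 50%. Their density was 23.3 per Mb, against 14 for chromosome 6 as a whole. Avruch had 4.67 against 2.49, but 7 of its 14 peaks lay in 1 stretch of 22.9 kb. Santa Cruz had 1.0 against 0.509, from only 3 peaks. The TEAD1 peaks were spread over the interval, with 27, 22 and 21 in its first, middle and last Mb. The median distance between neighbouring TEAD1 peaks was 26.1 kb and the longest was 202 kb. The same Mb held 9, 4 and 1 Avruch peaks and 1 Santa Cruz peak each.

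The strongest TEAD1 peaks of the chromosome 6 interval carried no YAP peak, as was so for most of its TEAD1 peaks. Only 8 of 70 (11.4%) met a YAP peak, against 3.59% of the whole list, so this does not set the strongest apart. The strongest were 26285579 to 26286056 (478 bp, score 242.01), 27453438 to 27454242 (805 bp, 238.72) and 28723995 to 28724579 (585 bp, 193.77). The next, 26857133 to 26857589 (457 bp, 142.40), overlapped an Avruch peak of 118 bp (26857439 to 26857556, score 52.52). The fifth, 27795833 to 27796285 (453 bp, 141.44), had none, but the TEAD1 peak just before it (27795528 to 27795784, score 72.73) overlapped a Santa Cruz peak (27795658 to 27795782, score 64.58). Scores of the 8 TEAD1 peaks with a YAP peak ran from 52.27 to 142.40.

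Avruch and TEAD1 peaks crowded together in 1 stretch of 22.9 kb, from 26848508 to 26871451, which was picked out after its values had been seen. It held 7 of the 14 Avruch peaks, 7 TEAD1 peaks and 1 of the 3 Santa Cruz peaks of the interval. The strongest Avruch peak of the interval lay here (26852771 to 26853209, 439 bp, score 241.42, rank 201 of its list), 1514 bp from the nearest TEAD1 peak. The strongest Santa Cruz peak of the interval lay here too (26855479 to 26855930, score 114.15, rank 201 of its own list) and overlapped a TEAD1 peak of 136 bp with a score of 52.27. It lay 432 bp from the nearest Avruch peak. Within the stretch 3 of 7 Avruch peaks overlapped TEAD1, and 3 of 7 did in the rest of the interval.

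The Avruch peaks outside the stretch were 98 to 190 bp wide with scores from 50.43 to 74.28, around the medians of the Avruch list (149 bp and 63.75). Those that overlapped TEAD1 were 26625691 to 26625789 (99 bp, score 71.84), 27666362 to 27666488 (127 bp, 66.49) and 27679543 to 27679732 (190 bp, 74.28). The other 4 had scores of 50.43, 52.62, 60.65 and 71.84 and lay 6165 to 33755 bp from the nearest TEAD1 peak. The remaining Santa Cruz peak (28625723 to 28625913, score 74.51) lay 9.18 kb from TEAD1.

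The chromosome 1 histone cluster held 15 TEAD1 peaks, 2 Santa Cruz peaks and no Avruch peak in 200 kb. TEAD1 had 75.0 peaks per Mb, against 18.8 for chromosome 1. Santa Cruz had 10 per Mb, against 1.13 for chromosome 1, and both of its peaks lay in 1 bin of 100 kb, a number reached by 1.04% of the bins that held any peak. Avruch had 4.45 per Mb on chromosome 1. The TEAD1 peaks were 242 to 490 bp wide and had scores from 50.11 to 121.40, with a median of 72.30. The highest were 149822062 to 149822517 (121.40, rank 7752 of the list), 149824134 to 149824553 (113.94), 149812322 to 149812728 (97.78) and 149814395 to 149814884 (86.78). Then came 149783416 to 149783709 (82.64), 149856780 to 149857167 (81.31), 149859935 to 149860244 (72.46) and 149813971 to 149814303 (72.30). The other 7 had scores from 50.11 to 69.06.

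These TEAD1 peaks lay in groups. A first group of 3 between 149764099 and 149765030 had scores of 53.77 to 63.07, and a further group of 7 between 149812322 and 149824553 held the 4 highest. Neighbouring peaks were at most 10 kb apart in 10 of 14 cases. Neither of the Santa Cruz peaks, 149712512 to 149712674 (score 51.65) and 149788531 to 149788681 (score 53.01), met a TEAD1 peak, and the nearest was 51.4 kb and 885 bp away. Their scores stood at ranks 2189 and 2052 of the 2471 Santa Cruz peaks.

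**Figure D5:**
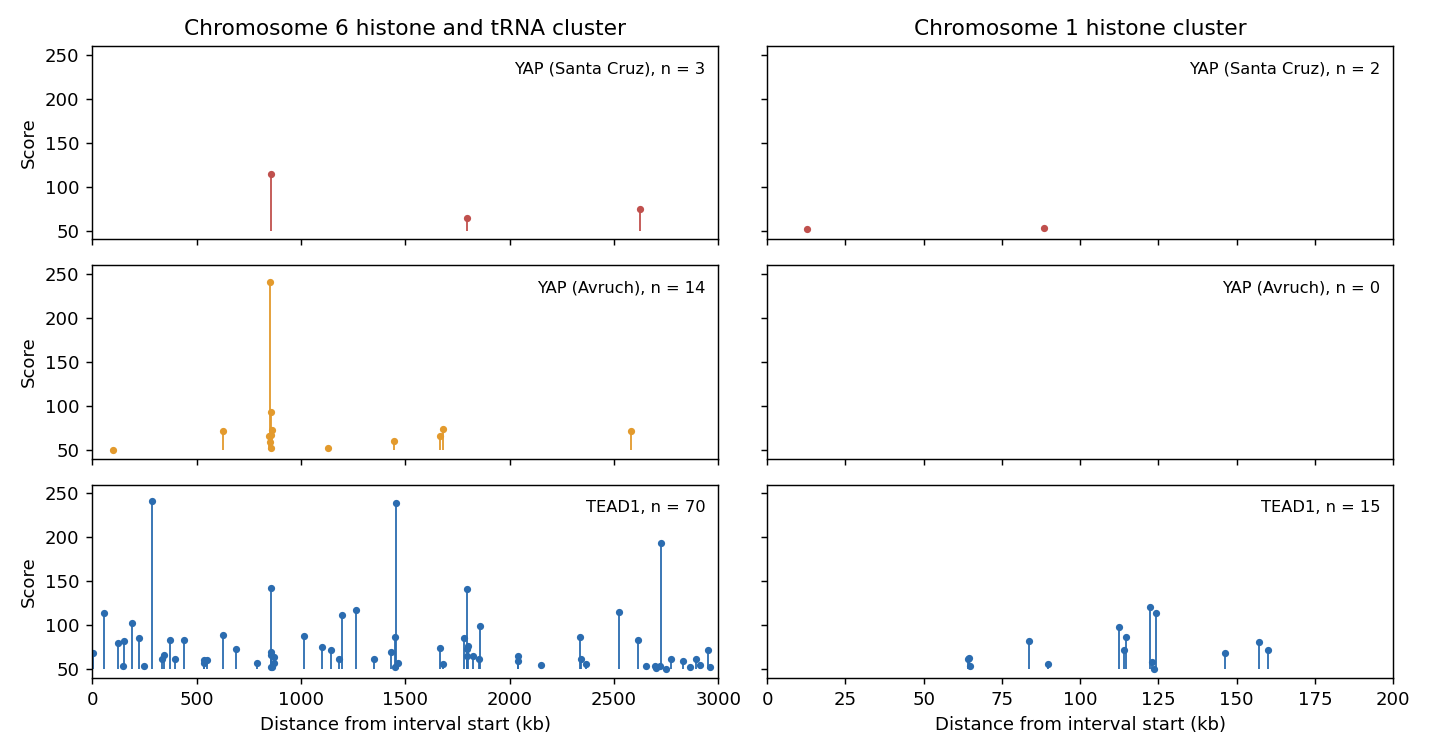
Peaks of the chromosome 6 cluster (left) and the chromosome 1 histone cluster (right), each as a point at its centre (x axis, kb from the interval start) and score (y axis, authors' units, not comparable between lists), with a stem down to 50. On chromosome 6 the 70 TEAD1 peaks are spread throughout while 7 of 14 Avruch peaks stand together, and on chromosome 1 15 TEAD1 peaks face 2 Santa Cruz peaks and no Avruch peak.

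Within their own lists, the 5S array and the tRNA cluster were among the fullest places of the placed chromosomes. The genome was divided into bins of 100 kb, of which 19878 held a peak of any list. The bin of the 5S array had 36 Santa Cruz peaks, reached by 2 bins in all, itself included, and 46 Avruch peaks, reached by 8 bins. For the bin of the tRNA cluster the numbers were 13 Santa Cruz peaks (11 bins) and 30 Avruch peaks (13 bins). TEAD1 differed, because its wide peaks count once each. The bin of the 5S array had 4 TEAD1 peaks, a number reached by 4169 bins, but its 38973 bp under TEAD1 peaks were reached by 4 bins. In the fullest bin of the chromosome 1 histone cluster there were 10 TEAD1 peaks, reached by 434 bins (2.18%), and in that of chromosome 6 there were 7, reached by 1166 (5.87%).

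As a share of each list, the 4 intervals held 2.23% of the Santa Cruz peaks, 0.899% of the Avruch peaks and 0.219% of the TEAD1 peaks, and 3.51%, 2.25% and 0.597% of the base pairs covered. Membership by any overlap instead of by the centre changed no count. Distances to the nearest peaks outside were counted from the edges of an interval, not from the peaks within it. For the 5S interval they were 441 kb before and 324 kb after it for Santa Cruz (scores 66.81 and 61.76). For Avruch they were 23.3 kb before and 728 kb after it (73.53 and 69.44). At the chromosome 1 histone cluster the nearest outside peaks were an Avruch peak 43.8 kb before it (score 98.92) and a TEAD1 peak 8.46 kb after it (score 56.70).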

How the data were processed

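Chromatin immunoprecipitation libraries of H69 cells were analysed from 3 deposited peak lists without headers, each with 5 columns. The submitters' processing notes name Bowtie2 and hg19. MACS appears in the names of the peaks, and neither its version nor its settings or control are given here. The score of each peak is the authors' deposited value. Depth is unknown.

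Peaks were assigned to an interval by their centre. Peaks overlapping by at least 1 bp counted as shared, with Wilson 95% intervals. Blocks ran from the first to the last TEAD1 peak at least 1 kb wide. Alternatives were membership by overlap, the 50% of peaks with the highest scores, joining at gaps of at most 1 kb, reciprocal overlap of 50%, 200 bp windows around the centres, wide peaks left out and bins of 250 kb. Peaks eligible to be named were, per interval, the highest-scoring of each list, up to 10 by TEAD1 score, those in all lists, up to 10 at least 1 kb wide, and each peak of a list with 10 or fewer there. Others named were chosen after their values were seen. Members, lists and blocks were chosen with earlier results of these data known. Gene classes at peaks were planned and not run, because no annotation of hg19 was used here. Python 3.11.15, pandas 2.3.3 and NumPy 2.4.6 were used, and the overlap code was tested on simulated data against bedtools 2.31.1.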

Additional observations from a re-analysis of the deposited data

How the results depend on the processing

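No paired analysis was possible because each antibody has 1 library. Counting any peak that touched an interval changed none of the 12 counts. Peaks joined at gaps of at most 1 kb numbered 6 (Santa Cruz), 2 (Avruch) and 4 (TEAD1) in the 5S array, 7, 4 and 6 in the chromosome 1 tRNA cluster, and 9 for TEAD1 in the chromosome 1 histone cluster. With the 50% of peaks with the highest scores, TEAD1 had 4 peaks in the 5S array, 32 on chromosome 6 and 9 in the chromosome 1 histone cluster, Santa Cruz had 9 in the tRNA cluster and 0 in the chromosome 1 histone cluster, and Avruch had 9 on chromosome 6. In the tRNA cluster, 100% of the Santa Cruz peaks left then met Avruch and 100% met TEAD1.

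Sharing in the arrays depended on width. In the 5S array, the share of Santa Cruz peaks meeting Avruch was 44.4% with an overlap of 50% of both peaks, 58.3% with windows of 200 bp and 45.2% with wide peaks left out. For Avruch peaks meeting Santa Cruz these values were 34.0%, 44.7% and 48.6%. For Santa Cruz with TEAD1 they were 0%, 5.56% and 0%, and for Avruch with TEAD1 0%, 4.26% and 0%. In the tRNA cluster the same settings gave 42.9%, 42.9% and 62.5% (Santa Cruz with Avruch), 20%, 20% and 26.9% (Avruch with Santa Cruz), 14.3%, 7.14% and 0% (Santa Cruz with TEAD1) and 6.67%, 6.67% and 3.85% (Avruch with TEAD1). On chromosome 6, with an overlap of 50% of both peaks, 0% of the Santa Cruz and 21.4% of the Avruch peaks met TEAD1, and with the upper 50% of scores 33.3% and 33.3% did. Narrow YAP peaks inside TEAD1 peaks of up to 19775 bp fail these settings by construction.

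With bins of 250 kb, the share of bins at least as full was 0.124% (tRNA cluster), 14.1% (chromosome 6) and 14.1% (chromosome 1 histone cluster) for Santa Cruz, 0.0956% (5S array), 0.153% (tRNA cluster) and 1.04% (chromosome 6) for Avruch, and 14.4% (5S array), 5.41% (tRNA cluster), 18% (chromosome 6) and 3.14% (chromosome 1 histone cluster) for TEAD1. Outside chromosome 6, such bins can reach beyond the intervals.

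How reads from near-identical copies were placed, which control library was used and how deep each library was are not stated in the sources, and their part in the wide blocks was not tested. Without replicates, nothing separates a difference between antibodies from one between libraries.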

Other observations

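The TEAD1 peaks of the chromosome 1 histone cluster held a mirrored arrangement, noticed after the values had been seen. Of the 105 pairs that 15 peaks can form, 3 had midpoints within 44.4 bp of each other, near 149818464 (hg19). They joined 149812322 to 149812728 (score 97.78) with 149824134 to 149824553 (113.94), 11.8 kb apart, 149813971 to 149814303 (72.30) with 149822688 to 149822953 (58.30), 8.68 kb apart, and 149814395 to 149814884 (86.78) with 149822062 to 149822517 (121.40), 7.65 kb apart. A further TEAD1 peak among them, 149823615 to 149823856 (score 50.11), had no partner. The 3 pairs were picked as the fullest of the 50 bp windows begun at each pair's midpoint. A number of 2 pairs was held by 4 windows, which can overlap the fullest. Whether random placement gives such an arrangement was not tested. RefSeq (GRCh38.p14) lists histone genes on chromosome 1 in the order H4C14, H3C14, H2AC18, H2BC19P, H4C15, H2BC20P, H2AC19, H3C15. In this listing the H3, H2A and H2B entries recur in reverse order, and H4C14 and H4C15 are both H4 genes. Both H2B entries, H2BC19P and H2BC20P, carry the suffix P of pseudogenes. Whether these genes lie at the mirrored peaks was not analysed here.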
